A study of Mus musculus with 7 samples.

Results

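The keratins and epidermal barrier genes described here are 44 genes of skin and other epithelia. Among them are simple and stratified keratins, proteins of the cornified envelope, barrier lipid enzymes, kallikreins and epidermal regulators. They were chosen with earlier results of these data known, so their counts describe these arrays and are no independent test. A gene was measured where an array row carried its symbol and no other, and where several rows did, the row whose mean across the 7 arrays was highest was taken. This gave values for 39 of the 44 members, out of 13562 genes measured this way. Krt5, Krt23, Tgm5, Spink5 and Trp63 were not analysed here. Sfn was the only member with more than 1 row, and its rows differed with DOX by 3.06 and 3.14.

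The study set gene expression beside the Utx genotype during reprogramming to pluripotency, with 1 Affymetrix array per condition. Kdm6a encodes Utx, an enzyme that takes methyl groups off histone H3. V6.5 embryonic stem cells (ESCs) were Utx +/Y, called wild type (WT), or Utx -/Y, called knockout (KO). Mouse embryonic fibroblasts (MEFs) labelled V19-OSKM, WT or KO, were profiled without and with doxycycline (DOX), which starts reprogramming by the factors Oct4, Sox2, Klf4 and Myc (OSKM), and the seventh array held fibroblasts made from Nanog-/- ESCs that had carried an OSKM lentivirus for 8 days. The labels name the medium of ESCs for all 7 samples, and the sources used here do not state the days of DOX, the number of clones or the age of the embryos. MEFs are taken from embryos as a mixed culture, so a gene can read higher because more cells of a type are present or because each cell holds more of its RNA, and fewer cells of a type and less RNA per cell cannot be told apart here.

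Epithelial cells are held in shape by keratins, filament proteins that pair as a type I and a type II chain. Simple epithelia, which are a single layer, use Krt8 with Krt18, whereas the basal layer of the epidermis uses Krt5 with Krt14 and the layers above it Krt1 with Krt10. As a keratinocyte matures, transglutaminases crosslink proteins under its membrane into a cornified envelope, lipid enzymes make the ceramides that waterproof it, and kallikrein proteases cut the junctions so that dead cells are shed. Fibroblasts and ESCs are not keratinocytes, and most genes of the cornified layer have low levels in both.

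Values are log2 levels, and a difference of 1 is 2-fold. A floor at the 40th percentile of all values, 7.34, marks signal that may be background. A gene counts as higher or lower where 2 arrays are at least 2-fold apart and the higher of them exceeds the floor. With 1 array per condition no difference could be set against replicate spread, so no p-value is given, and precision is limited by that number of arrays. Beside the count of members in each comparison of 2 arrays stands the share of all genes past the floor that met the same criterion in the same direction, and counts for role groups split up the count of the main comparison. Differences and their medians use the deposited values also under the floor, where a value may be background, so their sizes there are not measured. The largest of these differences chose which members are given on all 7 arrays and some of the promoters shown. That choice is no ranking of the genes. A fold whose lower value is under the floor is counted from the floor and written as at least that size.

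The libraries matched their labelled cell types in part. Markers of pluripotent cells had a median level of 11.27 in WT and 11.53 in KO ESCs and 5.15 to 6.29 on the other arrays. Fibroblast markers had a median of 11.84 in WT MEFs without DOX, 7.55 with DOX, and 12.13 on the Nanog KO array. It was 11.25 and 11.46 in the libraries labelled KO without and with DOX, and 8.91 and 6.46 in WT and KO ESCs. Kdm6a, the targeted gene, had levels of 9.12 (WT) and 7.97 (KO) in ESCs, 8.22 (WT) and 6.32 (labelled KO) in MEFs without DOX, 8.93 and 7.57 with DOX, and 9.08 on the Nanog KO array. Whether its probes lie in the deleted part is not stated. Pou5f1, the gene of Oct4, read 8.19 without and 12.59 with DOX in WT MEFs, but 11.26 in the library labelled KO without DOX and 5.12 in the one labelled KO with DOX. These values go against the DOX labels of the KO MEFs, so both libraries are called by their labels throughout, and their directions are those of the labels, whatever the cells were. The array medians were 7.68 to 7.84, except 8.55 on the Nanog KO array, and this shift is given beside its results.

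In WT MEFs, 35 of the 39 measured members were 2-fold or more higher with DOX than without and 0 were lower. Over all genes past the floor, 11.9% were higher and 13.7% lower, and the median difference was 4.67 for the members and 0.00 for all genes. Counted from the floor, the fold was at least 65.0 for Krt8, 42.2 for Nccrp1 and 40.2 for Ly6g6c. Only 35 of the 39 members passed the floor on either array, and 5 were above it without DOX. A member that passed it through the DOX array alone could not be called lower, so the counts are given out of all 39. The members not counted were Krt20, Krt15, Krt10 and Ivl, which were under the floor on both of these arrays.

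**Figure D1:**
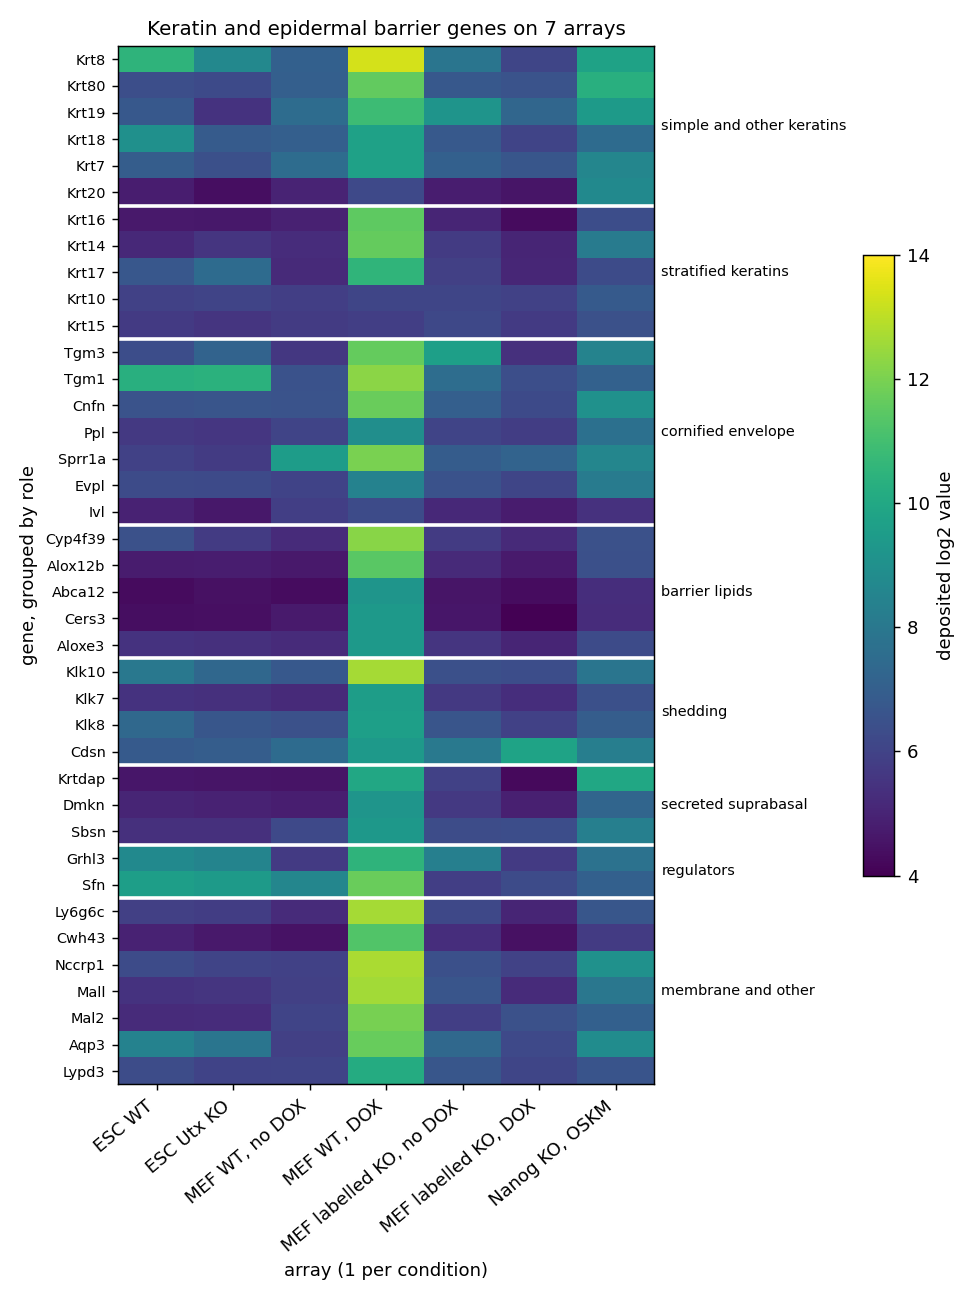
Deposited log2 level of the 39 measured members (vertical axis, grouped by role) on each of the 7 arrays (horizontal axis), with brighter colour, from dark purple to yellow, for a higher level. The column of WT MEFs with DOX holds the highest level of 35 of the 39 members.

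The array of WT MEFs with DOX held the highest value of 35 members, and the others were Cdsn, highest in the library labelled KO with DOX, and Krt20, Krt15 and Krt10, highest on the Nanog KO array as deposited. Krt15 and Krt10 were under the floor on all arrays, and with array medians aligned both were highest in the library labelled KO without DOX. For 31 of the 39 members the WT DOX array was 2-fold or more above each of the 6 other arrays, which held for 3.01% of all genes past the floor. The same 31 members were counted with array medians aligned and with quantile normalization. The exceptions were Krt18, Krt20, Krt15, Krt10, Ivl, Evpl, Cdsn and Krtdap. The median level over the members was 10.55 on that array, against 7.51 on the Nanog KO array and 5.74 to 6.17 on the other 5. The number of members above the floor was 8 in WT ESCs, 7 in KO ESCs, 5 in WT MEFs without DOX, 35 with DOX, 7 and 1 in the libraries labelled KO without and with DOX, and 20 on the Nanog KO array. Of all genes, at most 63.4% were above the floor on each of the first 6 arrays and 76.8% on the Nanog KO array, which had the higher median.

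The 6 promoters shown here belong to 5 members higher with DOX in WT MEFs and to Ivl, under the floor on all arrays. All were chosen for a match to a searched motif, among members with a single promoter entry. Ly6g6c and Alox12b had the largest DOX differences among those with any match, and the others are all those with the AP-1 site named below. Promoters with no match were not eligible, so the 6 are no contrast between higher and other members. They are the 250 bases before the start site, 5′ to 3′ on the strand of the gene, from RefSeq (GRCm38.p6). Capitals mark matches on either strand to the TATA box TATAAA, the AP-1 site TGANTCA and the Klf box CCACACCC. N stands for any base, so the AP-1 pattern is a loose one. Its match in Sbsn is TGAATCA, whereas those in Krtdap, Sprr1a and Ivl are TGAGTCA or TGACTCA. They are Ly6g6c at chr17:35067075-35067324 on the plus strand, Alox12b at chr11:69156822-69157071 on the plus strand, Krtdap at chr7:30787655-30787904 on the plus strand, Sbsn at chr7:30751221-30751470 on the plus strand, Sprr1a at chr3:92485882-92486131 on the minus strand and Ivl at chr3:92573736-92573985 on the minus strand.
Ly6g6c: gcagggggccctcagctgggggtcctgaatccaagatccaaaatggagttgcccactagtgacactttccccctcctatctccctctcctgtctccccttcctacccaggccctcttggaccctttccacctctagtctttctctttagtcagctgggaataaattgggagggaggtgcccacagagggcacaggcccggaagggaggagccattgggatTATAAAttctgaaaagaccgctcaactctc
Alox12b: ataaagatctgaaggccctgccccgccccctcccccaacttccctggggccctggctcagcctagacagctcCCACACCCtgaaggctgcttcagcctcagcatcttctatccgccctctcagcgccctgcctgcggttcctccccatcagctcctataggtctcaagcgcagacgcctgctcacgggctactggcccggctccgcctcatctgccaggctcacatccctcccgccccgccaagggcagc
Krtdap: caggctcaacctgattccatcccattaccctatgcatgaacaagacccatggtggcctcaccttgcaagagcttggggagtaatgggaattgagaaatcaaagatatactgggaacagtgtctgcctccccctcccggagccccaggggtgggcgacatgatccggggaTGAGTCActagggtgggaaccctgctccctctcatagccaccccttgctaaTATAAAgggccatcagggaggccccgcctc
Sbsn: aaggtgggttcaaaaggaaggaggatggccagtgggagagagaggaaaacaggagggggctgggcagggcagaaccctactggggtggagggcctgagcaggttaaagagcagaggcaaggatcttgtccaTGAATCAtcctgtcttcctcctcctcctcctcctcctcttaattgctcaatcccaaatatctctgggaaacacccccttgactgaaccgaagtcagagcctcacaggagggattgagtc
Sprr1a: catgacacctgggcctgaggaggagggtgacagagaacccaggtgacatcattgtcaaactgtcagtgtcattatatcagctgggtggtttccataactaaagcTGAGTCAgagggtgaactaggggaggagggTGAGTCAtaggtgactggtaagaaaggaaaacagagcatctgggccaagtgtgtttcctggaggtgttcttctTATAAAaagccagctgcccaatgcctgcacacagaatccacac
Ivl: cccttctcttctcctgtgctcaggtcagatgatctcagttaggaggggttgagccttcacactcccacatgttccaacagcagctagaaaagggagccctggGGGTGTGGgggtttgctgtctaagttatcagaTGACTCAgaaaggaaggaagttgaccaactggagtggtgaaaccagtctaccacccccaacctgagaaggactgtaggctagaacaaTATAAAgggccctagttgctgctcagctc

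Ly6g6c holds a TATA box from 30 to 25 bases before its start and no AP-1 site in this window, and Krtdap holds a TATA box at the same distance and an AP-1 site from 81 to 75. Sprr1a holds AP-1 sites from 146 to 140 and from 116 to 110 bases before the start. Ivl carries a TATA box, an AP-1 site and a Klf box, and it read 5.87 without and 6.29 with DOX, under the floor. Alox12b, by contrast, holds a Klf box as its only match among these motifs. A match describes letters in this window and is not a site of binding.

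Promoters were at hand for 29 of the 39 measured members, in 33 entries, since a gene can have several starts. TGANTCA was in 7 of these 33 entries (21.2%), from Sprr1a, Ivl, Sbsn, Dmkn and Krtdap, and in 6.75% of all 32851 entries of the table. TATAAA was in 8 (24.2%) against 12.4%, and CCACACCC in 3 (9.09%), those of Ivl, Cnfn and Alox12b, against 3.20%. The grainyhead motif AACCNGTT was in 1 entry (3.03%), that of Sfn, against 1.79%, and the octamer ATGCAAAT in 0 of 33 against 1.60%. All 5 motifs were searched on both strands, and a match to one did not bar a match to another. Entries of 1 gene overlap, so these shares are descriptions.

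Of the 6 measured simple keratins, 5 were higher with DOX in WT MEFs, at a median difference of 3.01. Krt8, the type II chain of simple epithelia, read 10.51 in WT ESCs, 8.67 in KO ESCs, 7.07 in WT MEFs without DOX, 13.36 with DOX, 7.89 and 6.09 in the libraries labelled KO without and with DOX, and 9.78 on the Nanog KO array. It was at least 65.0-fold higher with DOX than without in WT MEFs, counted from the floor, and the DOX array exceeded WT ESCs, the next highest, by 2.86. Its partner Krt18 differed less, by 2.69, since it read 7.03 without and 9.72 with DOX. Krt18 was also the only member above the floor that lay within 2-fold of WT ESCs, where it read 9.01.

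Krt80, a type II keratin of many epithelia, read 6.42 and 6.24 in WT and KO ESCs, 7.03 and 11.61 in WT MEFs without and with DOX, 6.73 and 6.54 in the libraries labelled KO without and with DOX, and 10.29 on the Nanog KO array. The WT DOX and Nanog KO arrays were above the floor and the other 5 under it. Krt19, a type I keratin of ducts and simple epithelia, read 6.75, 5.46, 7.53, 10.85, 9.19, 7.29 and 9.44 in the same order of arrays, and was 9.99-fold higher with DOX than without in WT MEFs. It was among the members above the floor in the library labelled KO without DOX. Krt7, a keratin of glands and ducts, differed by 2.18 in WT MEFs. Krt20, a keratin of the gut lining, read 4.99 without and 6.21 with DOX but 8.74 on the Nanog KO array, the only array where it exceeded the floor.

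Of the 5 measured keratins of stratified epithelia, 3 were higher with DOX in WT MEFs and the other 2 were under the floor. Krt16, a keratin of wounded skin and hair follicles, read 4.70 in WT ESCs, 4.65 in KO ESCs, 4.92 in WT MEFs without DOX, 11.53 with DOX, 5.05 and 4.30 in the libraries labelled KO without and with DOX, and 6.34 on the Nanog KO array. Krt14, the type I keratin of basal keratinocytes, read 5.14, 5.55, 5.26, 11.65, 5.74, 5.04 and 8.16 in that order. Krt17, a keratin of hair follicles and skin appendages, read 6.70, 7.49, 5.21, 10.55, 5.91, 5.06 and 6.28. For all 3 the WT DOX array stood alone at the top, by 5.18, 3.48 and 3.06 over the next array. Krt14 and Krt16 were at least 19.8-fold and 18.2-fold higher with DOX than without. Krt14, Krt16 and Krt17 are close copies of each other, and whether a probe of one also binds RNA of another was not tested, so the split between them is uncertain. Krt10, a keratin of the layers above the basal layer, read 5.86 without and 6.11 with DOX in WT MEFs, and Krt15, a keratin of basal and bulge cells, 5.75 and 5.87. Both were under the floor on all 7 arrays. Krt1, the partner of Krt10 and not a member, read 4.83 without and 8.09 with DOX, under and above the floor.

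The cornified envelope genes were higher with DOX for 6 of 7 members, at a median difference of 2.89. Tgm3, a transglutaminase of the upper epidermis and hair, read 6.35 in WT ESCs, 7.17 in KO ESCs, 5.61 in WT MEFs without DOX, 11.65 with DOX, 9.63 and 5.40 in the libraries labelled KO without and with DOX, and 8.46 on the Nanog KO array. Tgm1, the membrane-bound transglutaminase that crosslinks the envelope, read 10.30, 10.38, 6.51, 12.26, 7.58, 6.41 and 7.10 in that order. Tgm1 was high in both ESC libraries as well as in WT MEFs with DOX, whereas Tgm3 was under the floor in the ESCs. Tgm3 was above it in the library labelled KO without DOX and, as deposited, on the Nanog KO array. Cnfn, which encodes the envelope protein cornifelin, read 6.57, 6.62, 6.56, 11.70, 7.02, 6.26 and 9.04, and was at least 20.5-fold higher with DOX.

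Sprr1a, a small proline-rich protein that is crosslinked into the envelope, already read 9.52 without DOX in WT MEFs and 11.98 with it, a 5.52-fold difference, and under the floor in both ESC libraries. Its promoter, shown above, is the one with AP-1 sites in more than 1 place. Evpl and Ppl, the plakins envoplakin and periplakin that form the scaffold of the envelope, differed by 2.41 and 2.89. Evpl read 8.18 on the Nanog KO array and 8.44 in WT MEFs with DOX, a difference of 0.26 that became 0.997 with array medians aligned. Ivl, which encodes the scaffold protein involucrin, read 4.65 to 6.29 over the 7 arrays, under the floor on all of them.

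All 5 barrier lipid genes were higher with DOX in WT MEFs, at a median difference of 4.85. Cyp4f39, whose enzyme hydroxylates the very long fatty acids of skin ceramides, read 6.47 in WT ESCs, 5.74 in KO ESCs, 5.24 in WT MEFs without DOX, 12.22 with DOX, 5.72 and 5.18 in the libraries labelled KO without and with DOX, and 6.46 on the Nanog KO array. Alox12b, the lipoxygenase that oxidises the linoleate of those ceramides, read 4.77, 4.82, 4.70, 11.46, 5.18, 4.73 and 6.43 in that order. Each was above the floor on the WT DOX array and under it on the other 6, and they were at least 29.6-fold and 17.4-fold higher with DOX. Aloxe3, the lipoxygenase that acts after Alox12b, differed by 4.18, Abca12, the transporter that loads lipids into lamellar granules, by 4.85, and Cers3, the synthase of ceramides with very long chains, by 4.67. These 3 genes were likewise under the floor on the 6 other arrays.

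All 4 measured genes of cell shedding were higher with DOX in WT MEFs, at a median difference of 3.78. Klk10, a member of the kallikrein family, read 8.01 in WT ESCs, 7.35 in KO ESCs, 6.76 in WT MEFs without DOX, 12.63 with DOX, 6.43 and 6.35 in the libraries labelled KO without and with DOX, and 7.87 on the Nanog KO array. Klk7, a protease that cuts corneodesmosomes, read 5.47, 5.39, 5.20, 9.57, 5.67, 5.31 and 6.45 in that order. Klk10 was also above the floor in the ESCs and, as deposited, on the Nanog KO array, whereas Klk7 exceeded it on the WT DOX array alone. Klk8, another epidermal protease of the family, differed by 3.18 in WT MEFs. Cdsn, corneodesmosin, which glues the cornified cells together, read 7.51 without and 9.42 with DOX, a 3.76-fold difference. Unlike the other members it was highest in the library labelled KO with DOX, at 9.79, and it read 8.03 in its partner without DOX.

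The 3 secreted proteins of the layers above the basal layer were all higher with DOX, at a median difference of 4.36. Krtdap, keratinocyte differentiation-associated protein, read 4.61 in WT ESCs, 4.55 in KO ESCs, 4.53 in WT MEFs without DOX, 10.01 with DOX, 5.93 and 4.24 in the libraries labelled KO without and with DOX, and 9.96 on the Nanog KO array. It was above the floor on the WT DOX and Nanog KO arrays and under it on the other 5, and the first 2 differed by 0.05 as deposited and by 0.79 with array medians aligned. Dmkn, which encodes dermokine, read 5.04, 4.96, 4.86, 9.22, 5.68, 4.87 and 7.28, with only the WT DOX array above the floor. Sbsn, suprabasin, differed by 3.14 in WT MEFs and read 8.31 on the Nanog KO array.

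Both measured regulators were higher with DOX in WT MEFs. Grhl3, a grainyhead transcription factor that is needed to form the skin barrier, read 8.73 in WT ESCs, 8.50 in KO ESCs, 5.72 in WT MEFs without DOX, 10.49 with DOX, 8.33 and 5.71 in the libraries labelled KO without and with DOX, and 7.75 on the Nanog KO array. It thus exceeded the floor in the ESCs, in the library labelled KO without DOX and, as deposited, on the Nanog KO array, as well as with DOX in WT. Sfn, the 14-3-3 sigma protein stratifin that restrains division of keratinocytes, read 9.60, 9.45, 8.59, 11.73, 5.84, 6.27 and 7.07 in that order. Sfn was 8.80-fold higher with DOX in WT MEFs, and unlike Grhl3 it was under the floor in both libraries labelled KO from MEFs.

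All 7 membrane and other barrier genes were higher with DOX in WT MEFs, at a median difference of 6.73. Ly6g6c, a surface protein of the Ly6 family, read 5.88 in WT ESCs, 5.81 in KO ESCs, 5.22 in WT MEFs without DOX, 12.67 with DOX, 6.16 and 5.02 in the libraries labelled KO without and with DOX, and 6.67 on the Nanog KO array. Cwh43, which remodels the lipid of membrane anchors, read 4.95, 4.68, 4.47, 11.28, 5.29, 4.46 and 5.74 in that order. Both were above the floor on the WT DOX array alone, and were at least 40.2-fold and 15.4-fold higher with DOX. Nccrp1, an F-box-related protein of stratified epithelia, read 6.28, 6.04, 5.93, 12.74, 6.46, 5.97 and 9.05. Unlike Ly6g6c and Cwh43, it was also above the floor on the Nanog KO array.

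Mall and Mal2, proteins of membrane traffic in epithelia, differed by 6.73 and 5.89 between WT MEFs with and without DOX. Aqp3, the channel for water and glycerol in the epidermis, differed by 5.77 and was also above the floor in both ESC libraries, in the library labelled KO without DOX and on the Nanog KO array. Lypd3, a Ly6 family protein of the layers above the basal layer, differed by 4.10. Counted from the floor, the fold was at least 39.1 for Mall, 24.2 for Mal2 and 20.2 for Aqp3. These bounds exceed the 15.4 of Cwh43, which was given in full for its deposited difference.

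Against both ESC libraries, WT MEFs with DOX had higher levels of nearly every member. Of the 39, 34 were higher than in WT ESCs and 0 lower, beside 16.7% and 13.6% of all genes, with a median difference of 4.10. Against KO ESCs 35 were higher and 0 lower, beside 19.1% and 15.8%, at a median of 4.26. The smallest gap among members above the floor was that of Krt18 to WT ESCs, 0.71. Tgm1, Sfn and Grhl3, which were above the floor in WT ESCs, were higher in WT MEFs with DOX than in WT ESCs by 1.96, 2.13 and 1.77. All comparisons with the WT DOX array share that array, so their counts are not independent of each other.

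The libraries labelled KO from MEFs both read lower than WT MEFs with DOX. Of the 39 members, 35 were higher in WT MEFs with DOX than in the library labelled KO without DOX and 0 lower, beside 13.7% and 10.6% of all genes, at a median difference of 4.30. Against the library labelled KO with DOX, 34 were higher and 0 lower, beside 12.1% and 14.3%, at a median of 5.06. Cdsn, at a difference of -0.37, was the member above the floor that lay within 2-fold. With array medians aligned the shares of all genes were 11.2% and 13.1% for the library labelled KO without DOX, and the member counts were 35 and 0.

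**Figure D2:**
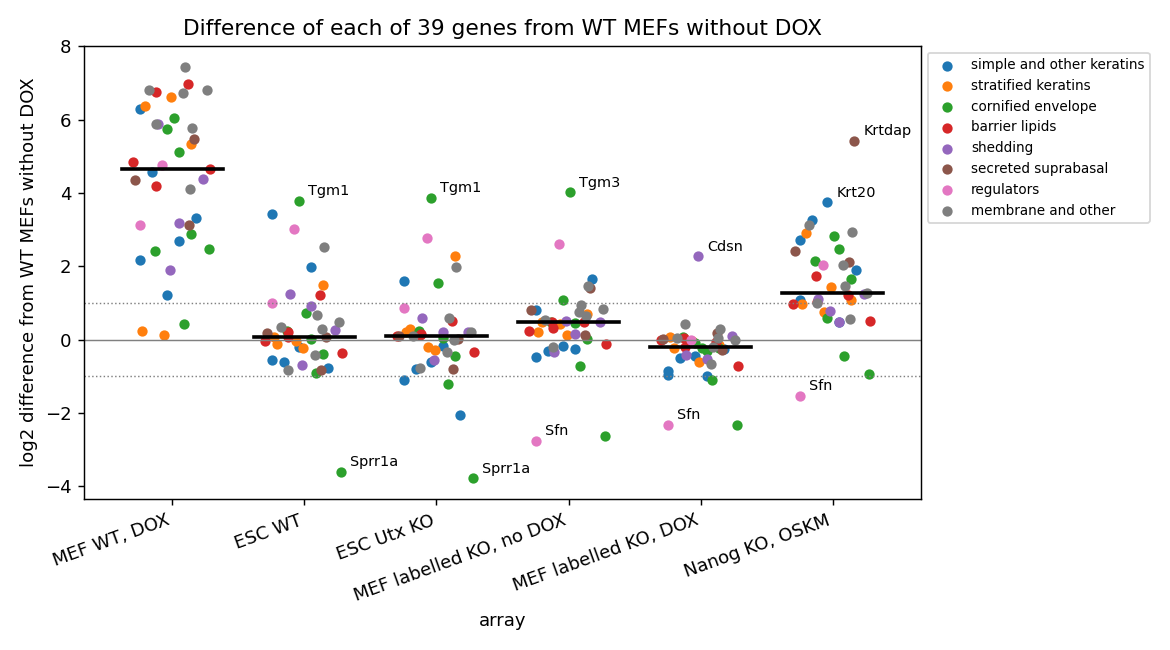
Log2 difference of each of the 6 other arrays from WT MEFs without DOX (vertical axis, 1 column per array) for the 39 measured members (points, coloured by role), with the member median as a black bar and 2-fold as dotted lines. The member median is 4.67 for WT MEFs with DOX, 0.08 for WT ESCs, 0.47 for the library labelled KO without DOX and 1.27 for the Nanog KO array, and the named points are among the extremes of their columns.

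Against the Nanog KO array, WT MEFs with DOX were higher in 33 of 39 members and lower in 1. All genes ran the other way, with 5.53% higher and 37.2% lower and a median difference of -0.76, since the Nanog KO array had the higher median. With array medians aligned, 13.3% of all genes were higher and 13.1% lower, the member counts were again 33 and 1, and the member median went from 3.15 to 3.89. The member that was lower was Krt20, at -2.53. Krtdap and Evpl lay within 2-fold, at 0.05 and 0.26 as deposited and 0.79 and 0.997 with medians aligned. The Nanog KO array differs from the WT DOX array in Nanog genotype, in cell line, in the way the factors were delivered and in its median, and these cannot be told apart.

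The Nanog KO array itself was set against WT MEFs without DOX. Of the 39 members 17 were higher on it and 1 was lower, beside 35.1% and 3.72% of all genes, and 21 members passed the floor. With array medians aligned 12 were higher and 2 lower, beside 9.41% and 11% of all genes, and the member median went from 1.27 to 0.53. Counted from the floor, Krt80 was at least 7.76-fold higher, Krtdap 6.14-fold, Krt8 5.42-fold, Nccrp1 3.28-fold, Cnfn 3.25-fold, Aqp3 2.85-fold and Krt20 2.63-fold. Krt19, above the floor on both arrays, was 3.76-fold higher. These folds include a shift of 0.74 log2 in the array medians, so they are not bounds once the medians are aligned. None of the 5 barrier lipid genes passed the floor on the Nanog KO array, although all 5 passed it in WT MEFs with DOX. The member that was lower was Sfn, at -1.53.

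Between the ESC libraries most members could not be compared, since 30 of 39 were under the floor on both. In KO ESCs 0 of 39 members were 2-fold or more higher and 2 were lower than in WT ESCs, beside 0.651% and 3.18% of all genes, with 9 members past the floor and a median difference of -0.08. The lower ones were Krt18, at -2.15, and its partner Krt8, at -1.83. Krt17 differed by 0.79, within 2-fold. Of 13 measured fibroblast markers, 8 were lower in KO than in WT ESCs and 0 higher, at a median difference of -1.80. The part of cell makeup in the members' differences was not tested. With 1 library of each genotype, Utx genotype and any other difference between the ESC cultures cannot be told apart. Tgm1, Grhl3, Sfn and Aqp3, also above the floor in both, lay within 2-fold, at 0.08, -0.23, -0.16 and -0.55.

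In MEFs labelled without DOX, some members were higher in the library labelled KO than in WT. They were 5 of 39, beside 5.04% of all genes, and 2 were lower, beside 9.53%, with 10 members past the floor and a median difference of 0.47. With array medians aligned the shares of all genes were 6.99% and 7.07%, and the member counts were 5 and 2. The higher members were Tgm3, at 4.02, Grhl3, at 2.62, Krt19, at 1.66, Aqp3, at 1.47, and Tgm1, at 1.07. The lower ones were Sfn, at -2.76, and Sprr1a, at -2.63. Pou5f1 read 11.26 in this library and 8.19 in the WT one, and the part of the factor level in these differences was not tested.

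Between the libraries labelled KO, the one with DOX was the lower. In it 1 of 39 members was higher, beside 6.81% of all genes, and 6 were lower, beside 2.93%, with 7 members past the floor and a median difference of -0.54. Array medians aligned gave 5.01% and 3.94% of all genes, and the member counts were 1 and 6. The lower members were Tgm3, at -4.24, Grhl3, at -2.63, Krt19, at -1.90, Krt8, at -1.80, Aqp3, at -1.18, and Tgm1, at -1.17, and Cdsn, at 1.76, was the higher one. Of the 7 members 2-fold or more apart with DOX in both genotypes as labelled, 6 had opposite signs, as did 479 of 504 genes over the whole table. Across all array rows, which are not independent replicates, the profile of WT MEFs without DOX had r = 0.972 to the library labelled KO with DOX and r = 0.921 to its partner.

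WT ESCs differed from WT MEFs without DOX in 8 members. Of the 39, 7 were higher in the ESCs and 1 was lower, beside 14.5% and 19.8% of all genes, with 12 members past the floor and a median difference of 0.08. Higher were Tgm1, at 3.79, Krt8, at 3.44, Grhl3, at 3.01, Aqp3, at 2.53, Krt18, at 1.98, Klk10, at 1.25, and Sfn, at 1.01. Sprr1a was lower, at -3.60. The 8 members above the floor in WT ESCs were these 7 and Klk8, and the 5 above it in WT MEFs without DOX were Krt7, Krt19, Sprr1a, Cdsn and Sfn.

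Many members lie beside each other in the genome, and RefSeq gene order (GRCm38.p6) was used to set them in sequence. Of 11 measured kallikreins of the member and protease lists in the run, 8 were 2-fold or more higher with DOX in WT MEFs and Klk13, Klk5 and Klk15 were under the floor, at a median difference of 3.18. That run leaves out Klk4, the first measured gene after Klk7 that is in no list, which was under the floor too, at 5.61 and 5.68. The run of Sbsn, Dmkn and Krtdap was higher at 3 of 3 genes, and that of Aloxe3, Alox12b and Alox8 at 3 of 3. In the type I keratin run 5 of 13 listed genes were higher, namely Krt13, Krt19, Krt14, Krt16 and Krt17, and 7 were under the floor. In the run that holds the type II keratins and Krt18, 8 of 10 listed genes were higher, at a median difference of 3.13. That run leaves out Krt90 and Krt87, measured keratins in no list, of which Krt90 was higher and Krt87 under the floor, at 6.54 and 6.66.

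**Figure D3:**
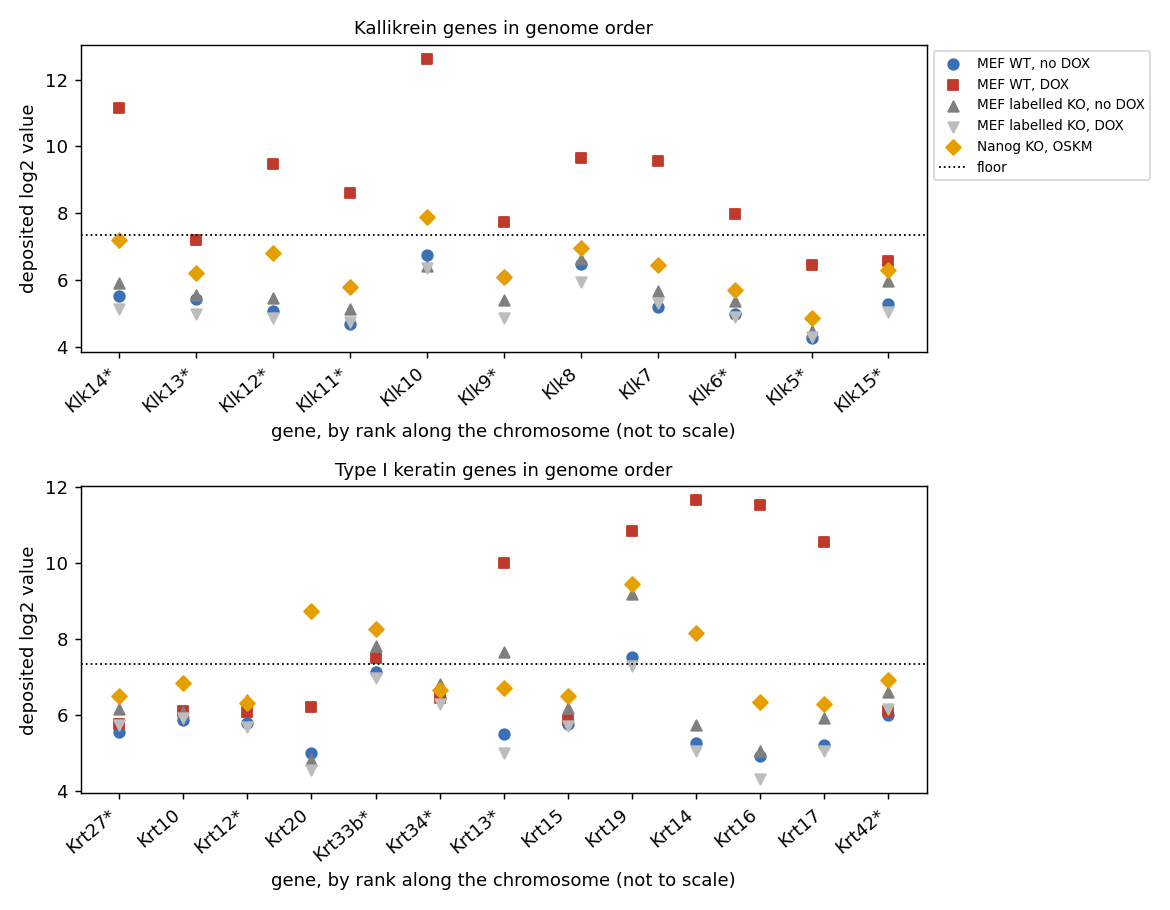
Log2 level (vertical axis) of listed genes in RefSeq order (horizontal axis, not to scale), for kallikreins (top) and type I keratins (bottom). Each MEF or Nanog KO array has 1 marker style, the floor is a dotted line, and an asterisk marks genes that are not members. Genes in no list are left out. In the kallikrein run the WT DOX array is above the floor and 2-fold or more above WT MEFs without DOX at 8 of 11 listed genes, and in the keratin run at 5 of 13.

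The measured genes next to members were counted as well. Of 52 such neighbours outside every list used here, 33 passed the floor, 9 of these (27.3%) were 2-fold or more higher with DOX in WT MEFs and 2 were lower, beside 11.9% and 13.7% of all genes. Krt90, a keratin beside the type II members, read 5.64 without and 11.77 with DOX, and Mal, a membrane traffic protein next to Mall, read 5.18 and 11.41. Ccn3, at -5.84, and Tnfrsf11b, at -2.99, were the lower ones. These 4 neighbours, and Klk4 and Krt87, were chosen after their values were seen.

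Other genes of the epidermis were counted from lists of keratins, envelope genes, lipid enzymes, proteases and regulators. Of 12 measured keratins in the list, which does not hold Krt90 and Krt87, 5 were higher with DOX in WT MEFs and 0 lower, with 6 past the floor and a median difference of 0.71. Krt6b, at 5.22, and Krt6a, at 4.75, are near-identical keratins of wounded skin whose signals may not be separable, and Krt13, a keratin of the mouth and gullet, differed by 4.51. Of 13 measured envelope genes, 6 were higher and 0 lower, with 7 past the floor and a median of 1.39. Sprr2b and Sprr1b, small proline-rich proteins, differed by 4.86 and 3.49, and Crct1, a gene of the same chromosomal complex, by 3.24.

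Of 11 measured lipid enzymes outside the members, 3 were higher and 0 lower, with 10 past the floor and a median difference of 0.71. They were Sult2b1, which sulphates cholesterol, at 4.27, Elovl7, a fatty acid elongase, at 4.05, and Alox8, a lipoxygenase, at 3.11. Of 15 measured proteases and inhibitors, 11 were higher and 0 lower, beside 11.9% and 13.7% of all genes, at a median of 3.45. Only 11 passed the floor on either array and 1 was above it without DOX, so hardly any could be called lower. St14, the membrane protease matriptase, read 5.60 without and 11.60 with DOX, the kallikrein Klk14 differed by 5.64, and Spint1, the inhibitor of matriptase, by 5.43. The library labelled KO without DOX also differed from WT here, since St14 read 8.76 and Spint1 8.11, against 5.60 and 5.38 in WT MEFs without DOX.

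Of 28 measured regulators outside the members, 10 were higher with DOX in WT MEFs and 2 lower, with 19 past the floor and a median difference of 0.91. Ehf, an epithelial factor of the Ets family, differed by 5.44, Ovol1, a zinc finger factor of epithelial maturation, by 3.74, and Esrp2, a splicing factor of epithelia, by 3.69. The lower ones were Vdr, the vitamin D receptor, at -3.85, and Cebpa, a factor of differentiating keratinocytes, at -1.29. Klf4, which is both a barrier regulator and 1 of the 4 reprogramming factors, differed by -0.11, and its relative Klf5 by -0.52. Of the other factors, Sox2 read 5.18 without and 5.31 with DOX, under the floor, whereas Pou5f1 differed by 4.40. Whether the probes of these factors detect RNA of the copies that DOX switches on is not stated.

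**Figure D4:**
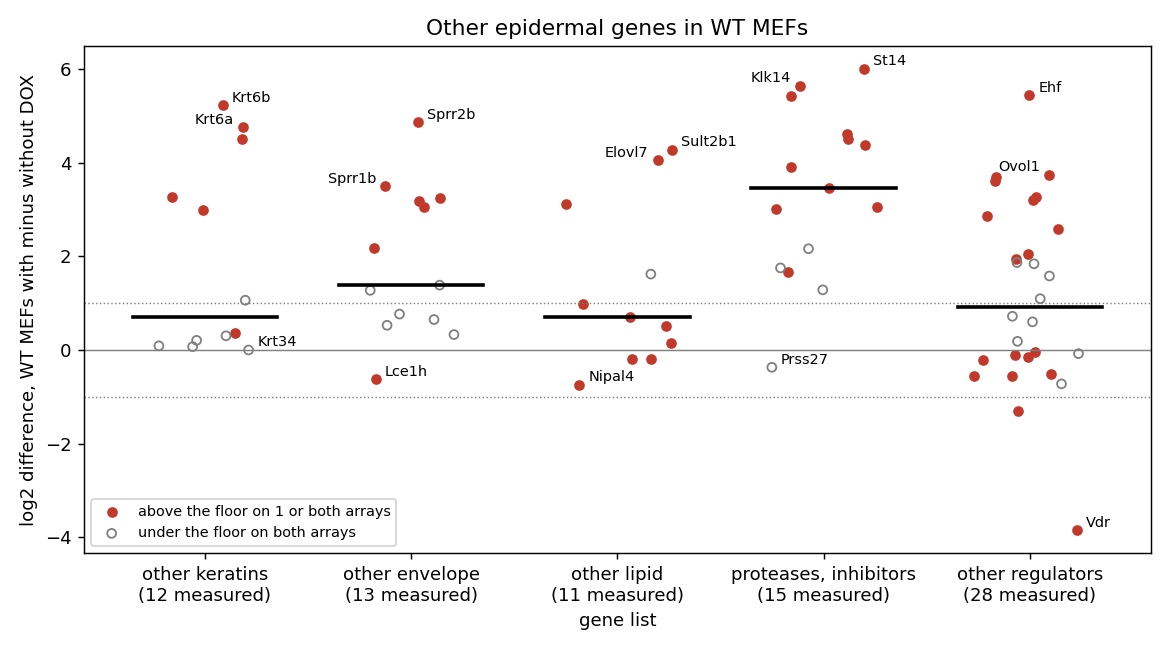
Log2 difference of WT MEFs with DOX from those without (vertical axis) for measured epidermal genes outside the members, with 1 column per list (horizontal axis), 1 point per listed gene (open where under the floor on both arrays) and the list median as a bar. The list medians are 0.71 for keratins, 1.39 for envelope genes, 0.71 for lipid enzymes, 3.45 for proteases and 0.91 for regulators, and the named points are the lowest and the 2 highest.

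Most general epithelial markers moved with the members, and most fibroblast and macrophage markers moved the other way. Of all genes past the floor, 11.9% were higher with DOX in WT MEFs and 13.7% lower. General epithelial markers, such as adhesion and junction genes, had a median level of 5.89 without DOX in WT MEFs and 9.62 with it, and 13 of 14 measured were higher and 1, Cdh3, lower at -2.39. Their medians were 7.45 and 6.91 in WT and KO ESCs, 7.03 and 5.72 in the libraries labelled KO without and with DOX, and 7.39 on the Nanog KO array. Of 13 fibroblast markers 0 were higher with DOX in WT MEFs and 10 were lower, at a median difference of -4.37, and Dcn, at 0.29, Prrx1, at -0.47, and Vim, at -0.68, were within 2-fold. Macrophage markers had a median of 10.11 without and 5.14 with DOX, with 11 of 12 lower. So the WT DOX culture read lower in the fibroblast and macrophage lists where it read higher in the members, and the part of cell makeup in the members' differences was not tested.

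Markers of trophoblast, a fetal epithelium that also uses Krt7, Krt8, Krt18 and Krt19, had medians of 5.68 without and 6.45 with DOX in WT MEFs over 8 measured genes of 12 listed. Both medians were under the floor. It was passed by 3 genes, of which 2 were higher and 1 lower, beside 11.9% and 13.7% of all genes. Bmp8b, a growth factor, differed by 4.67 and Elf5, a trophoblast factor, by 3.60, both higher, against -3.11 for the receptor Fgfr2. Primitive endoderm markers had medians of 9.54 without and 7.45 with DOX over 8 genes, and markers of melanocytes and Schwann cells 5.62 and 5.61 over 4, under the floor. Pluripotency markers had medians of 5.30 without and 5.39 with DOX over 12 genes, of which 3 passed the floor. All 3 were higher with DOX, namely Pou5f1 at 4.40, Fgf4 at 2.89 and Sall4 at 1.90. Some genes stand in more than 1 of these lists, such as Pdgfra in the fibroblast and primitive endoderm lists and Elf5 in the trophoblast and regulator lists.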

How the data were processed

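Per the submitters' processing notes, the log2 values the authors deposited came from RMA in Affymetrix Expression Console, whose version is not given there. The labels name a kit for 3-prime arrays, whereas the array identifiers are of a whole-transcript design. The members and lists were chosen with earlier results of these data known. Rows were named through the platform annotation: of 21811 rows, 14894 had 1 symbol and were used, 925 had several symbols, and 5992 are unnamed here.

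Log2 differences per gene were taken for 11 pairs of arrays, with the floor at the 40th percentile and the threshold at 2-fold. A fold whose lower side was under the floor was counted from the floor. All members may be named, with 7-array values for the 2 or 3 with the largest DOX difference in each role group. No test across genes was run. Alternatives were aligned medians, quantile normalization, other floors and folds, the mean over a gene's rows and, chosen after the data were seen, a floor set without 3 arrays. Python 3.11.15 with numpy 2.4.6, pandas 2.3.3 and matplotlib 3.10.9 was used.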

Additional observations from a re-analysis of the deposited data

Results flagged for a closer look

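The difference made by DOX was opposite in sign between WT MEFs and the libraries labelled KO for 6 members, each 2-fold or more apart in both. Labelled KO minus WT, the DOX difference was -8.09 for Krt8, -5.22 for Krt19, -6.92 for Tgm1, -10.28 for Tgm3, -7.40 for Grhl3 and -6.95 for Aqp3. Each of these uses deposited values under the floor, so their sizes are not measured. With 1 array per condition this difference between genotypes was not tested, and Pou5f1 goes against the DOX labels of the same libraries.

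Array rows that carry several symbols of the Sprr2 family, whose proteins are crosslinked into the cornified envelope, were outside the comparisons. In WT MEFs a row with 4 symbols read 7.98 without and 12.13 with DOX, a difference of 4.15, and 11.12 on the Nanog KO array. A row with 2 symbols read 7.19 and 10.82, a difference of 3.64. Neither can be given to a single gene.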

How the results depend on the processing

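Of 142 member counts recomputed under other settings, 132 stayed within 1.5 times the reported count and no median changed sign. Counts of members higher in WT MEFs with DOX ranged from 33 to 37 over all 6 comparisons and settings. With a 1.5-fold threshold, KO ESCs had 1 member higher (2.74% of all genes) and 4 lower (6.65%) than WT ESCs, WT ESCs had 3 lower than WT MEFs without DOX (29.4%), and the Nanog KO array had 2 lower than those MEFs (6.07%). With the floor at the 60th percentile, 2 members were higher in the library labelled KO without DOX than in WT (4.88% of all genes), 2 were lower with than without DOX between the libraries labelled KO (2.53%), and 9 were higher on the Nanog KO array than in WT MEFs without DOX (33.5%), against 26 with no floor (34.2%). That array had 2 lower members with aligned medians and 2 with quantile normalization, which gave a median difference of 0.80. The row choice and floor set without the 2 MEF libraries labelled KO and the Nanog KO array changed no count in the 5 comparisons that use none of these arrays, and was run for those alone. No paired analysis was possible because each condition had 1 array. Signal under the floor limits the low members, for which only a bound on the fold can be given.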
